A study of Caenorhabditis elegans with 8 samples.

Results

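Early adult ageing was examined as the difference between wild-type Caenorhabditis elegans (N2 Bristol) at day 6 of adulthood and the same strain at day 1. All 26128 genes with a probe of their own were compared, each shown by its brightest probe, on 3 arrays of day 6 and 3 arrays of day 1, out of 8 arrays in all. The other 2 arrays, of day 12, served to estimate the spread and to place the early change in time. Every array carried biotin-labelled total RNA of a whole synchronized population kept at 20 °C on NGM plates with OP50 bacteria, and no group carried a mutation or a drug. Replicates are named biological, nothing further says whether they were separate cultures, and the labels give no batch, so p-values measure the spread between these samples and a batch that ran with age cannot be told apart from it.

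At day 1 a hermaphrodite has just begun to lay eggs, and by day 6 most self-fertile egg laying is over while the animal still moves and feeds. The body is mostly post-mitotic: muscle, intestine, hypodermis and neurons are not replaced, whereas the germline keeps dividing. Insulin-like signalling through the receptor DAF-2 restrains the transcription factor DAF-16, which turns on genes of stress defence, immunity and fat metabolism, and it is the best studied regulator of lifespan in this animal. In RNA from whole animals, fewer cells of a type and less RNA per cell cannot be told apart.

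Values are log2 signal, differences are day 6 minus day 1 with their standard error, and a gene rose or fell when limma gave an adjusted p under 0.05 (Benjamini-Hochberg). A day mean under 3 was treated as close to the floor of the signal, and a difference from or to such a mean is a lower bound. By this rule 566 genes rose and 439 fell, which is 2.17% and 1.68% of the 26128 genes, or 3.85% together. Among the 9890 genes with a mean of 3 or above on either day, 9.73% were called, of which 5.45% rose and 4.28% fell. The arrays of day 6 all lay above, or all below, those of day 1 in 23.3% of all genes (14.3% above). Rises were the larger changes: 56 genes rose by at least 2 on the log2 scale and 13 fell by as much. Without day 6 replicate 1 the count of calls was 274 in place of 1005, and that array was the lowest of its day for 304 of the 439 fallen genes and the highest for 347 of the 566 risen genes. Leaving out another single array gave 414 calls (day 6 replicate 3), 656 (day 6 replicate 2), 644 (day 1 replicate 1) or 638 (day 1 replicate 2).

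**Figure D1:**
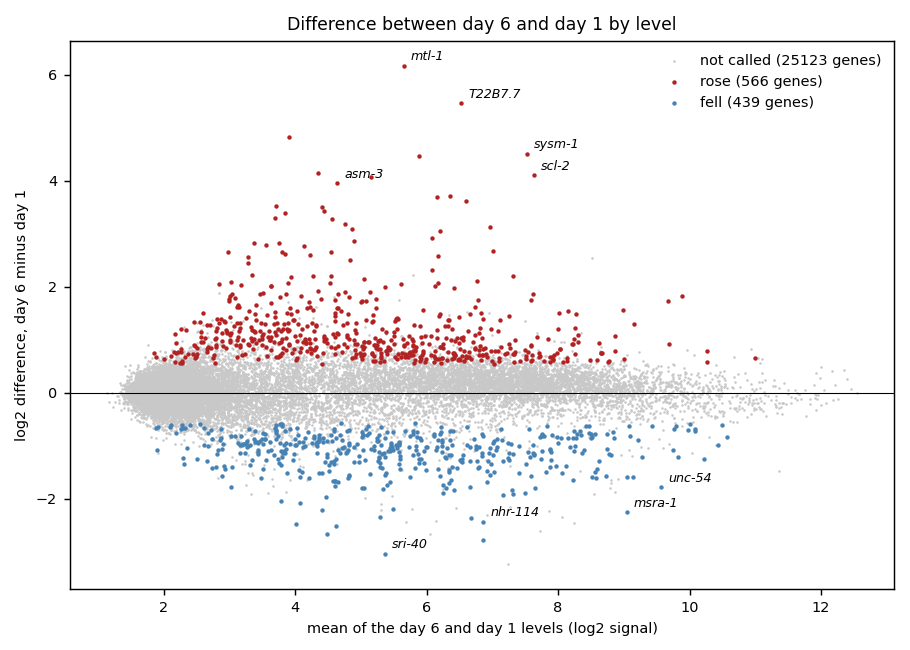
Each point is 1 of 26128 genes, with the mean of its day 6 and day 1 levels (log2 signal) on the x axis and the log2 difference, day 6 minus day 1, on the y axis. The 566 genes that rose are red and the 439 that fell are blue; mtl-1 lies highest at 6.17 and sri-40 lowest of the labelled genes at -3.04.

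The metallothionein gene mtl-1, whose product binds zinc and cadmium, had 9.20, 8.64 and 8.37 at day 6, against 1.93, 2.61 and 3.15 at day 1. All day 6 arrays stood far above all day 1 arrays, with a difference of 6.17 ± 0.33 (adjusted p = 2.56e-05). Its companion mtl-2 was already bright, at 8.78, 8.47 and 8.30 at day 6 and 7.39, 8.19 and 7.12 at day 1, and was not called (0.95 ± 0.28, adjusted p = 0.107). In the list of 8 metallothionein and cadmium response genes mtl-1 was the 1 that rose and none fell.

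T22B7.7 had 9.32, 9.24 and 9.21 at day 6, against 3.69, 4.04 and 3.65 at day 1 (5.46 ± 0.20, adjusted p = 2.86e-06). The short-chain dehydrogenase gene dhs-26 had 8.37, 7.84 and 8.14 at day 6, against 3.90, 3.95 and 3.08 at day 1. The SCP-like secreted protein gene scl-2 had 9.83, 9.21 and 10 at day 6, against 5.14, 5.91 and 5.69 at day 1. None of these genes had overlapping days, and dhs-26 and scl-2 differed by 4.47 ± 0.26 and 4.10 ± 0.25. The same held for F15E6.3 (3.69 ± 0.26), C32H11.4 (3.62 ± 0.32), cnc-7 (3.12 ± 0.37) and sysm-1 (4.51 ± 0.24). Of the 20 largest rises, H39E23.3 was the 1 whose call depended on single arrays: it had 6.31, 6.41 and 3.92 at day 6, against 1.77, 2.87 and 1.82 at day 1 (3.39 ± 0.66), and leaving out one of them gave an adjusted p of 0.0965 (day 6 replicate 1), 0.0647 (day 6 replicate 2), 0.0721 (day 1 replicate 1) or 0.059 (day 1 replicate 3).

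**Figure D2:**
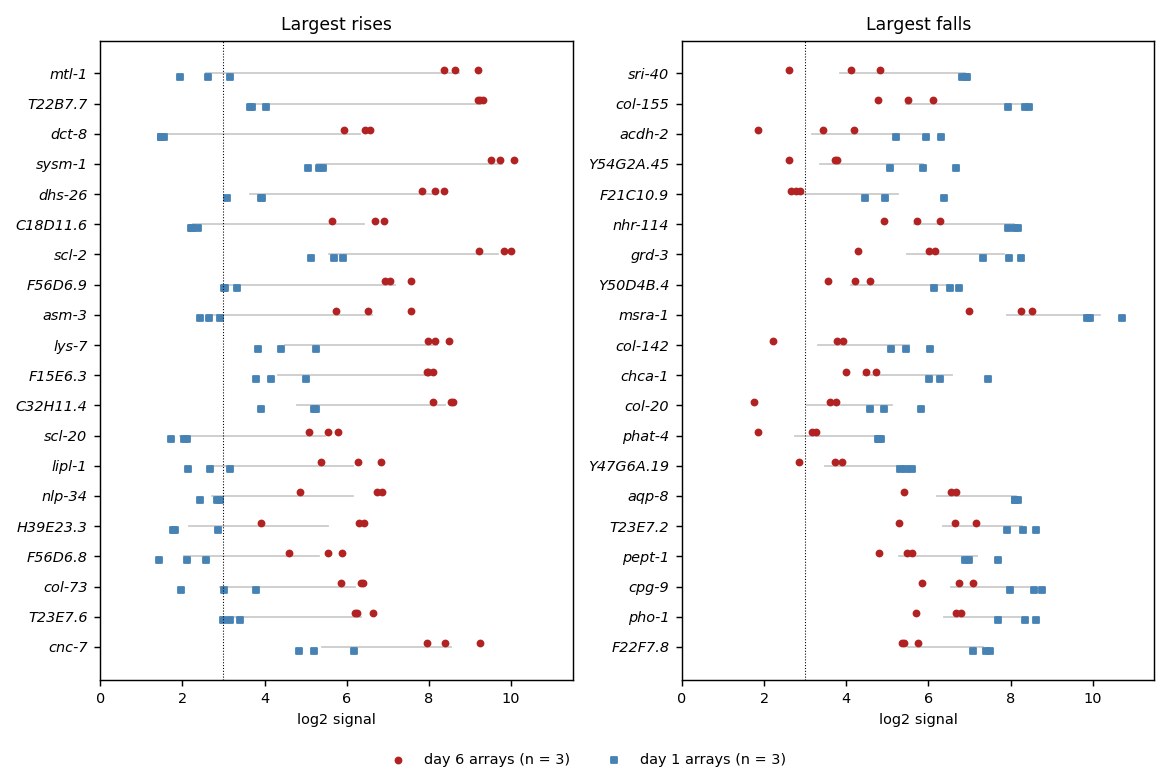
Log2 signal (x axis) of the 20 largest rises (left) and 20 largest falls (right) among called genes with no overlap between the arrays of the days, with red circles for the 3 day 6 arrays and blue squares for the 3 day 1 arrays; the grey line joins the day means and the dotted line marks a level of 3. Most rises start close to the dotted line at day 1, while most falls start above a level of 5.

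Several families of defence against microbes held genes that rose. Lysozymes digest bacterial cell walls, and lys-7 had 8.48, 8.15 and 7.98 at day 6, against 4.40, 3.84 and 5.26 at day 1 (3.70 ± 0.31, adjusted p = 0.000439). Of 16 lysozyme genes 2 rose and 1 fell; the calls of lys-2 (1.08 ± 0.26) and lys-4 (-1.56 ± 0.37) had an adjusted p of 0.17 and 0.15 without day 6 replicate 1, and the number rising was 1 with any array left out except day 1 replicate 3, which gave 3. Of 64 genes of epidermal and other antimicrobial peptides 5 rose and none fell, with 5 to 7 rising whichever array was left out. They were nlp-34 (3.43 ± 0.46), cnc-7, cnc-2 (2.58 ± 0.36), nlp-29 (1.98 ± 0.31) and abf-2 (1.21 ± 0.13), of which nlp-29 is a classical reporter of epidermal wounding and fungal infection. The median of the 64 was 0.00, against 0.02 over all genes. The 5 rises are 7.81% of the 64, of which 25 had a day mean of 3 or above.

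Saposin-like proteins permeabilise bacterial membranes, and thaumatin-like proteins resemble antifungal proteins of plants. In that list of 33 genes 6 or 18.2% rose and none fell. The thaumatin-like gene thn-2 had 6.03, 5.62 and 5.96 at day 6, against 3.04, 3.12 and 3.49 at day 1 (2.66 ± 0.17, adjusted p = 7.24e-05). It kept its call whichever array was left out, while the count for the list was 2, 3 or 2 with day 6 replicate 1, 2 or 3 left out and 1, 3 or 4 with day 1 replicate 1, 2 or 3 left out. Of 240 C-type lectin genes 10 rose and 2 fell, a share of 4.17% and 0.833%, against 2.17% and 1.68% of all genes. Of the 240, 60 had a day mean of 3 or above, and of all such genes 5.45% rose and 4.28% fell. The lectin gene clec-266 had 6.96, 6.05 and 6.9 at day 6, against 5.18, 4.59 and 3.97 at day 1 (2.06 ± 0.32), and clec-52 had 5.77, 5.27 and 5.74 at day 6, against 3.99, 3.82 and 3.37 at day 1 (1.86 ± 0.20). The lectins rising numbered 5 without day 6 replicate 1. The infection response gene irg-5 had 6.11, 5.88 and 6.33 at day 6, against 4.16, 4.67 and 4.22 at day 1 (1.76 ± 0.19).

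Skp1 proteins link F-box proteins to the cullin of SCF ubiquitin ligases, and C. elegans has many Skp1-related genes. Of 20 measured, 6 or 30% rose and none fell, with a median difference of 0.59. The count was 4 to 6 whichever array was left out, lowest without day 6 replicate 1, day 6 replicate 2 or day 1 replicate 1. The gene skr-12 had 8.71, 8.09 and 8.24 at day 6, against 5.60, 6.05 and 5.34 at day 1 (2.68 ± 0.24, adjusted p = 0.00057). It was joined by skr-9 (1.76 ± 0.23), skr-13 (1.48 ± 0.22) and skr-7 (1.36 ± 0.15), none of which lost its call with an array left out. These genes belong to a family of close copies, and the probes' specificity among them was not tested. Of 186 F-box A genes 6 or 3.23% rose and 1 or 0.54% fell, against 2.17% and 1.68% of all genes. The F-box A rises numbered 1 without day 6 replicate 1 or 3, 2 without day 1 replicate 1 or 2, and 3 without day 6 replicate 2 or either day 12 array. Of proteasome genes, which degrade what these ligases mark, 33 were measured and none rose or fell by limma at an adjusted p under 0.05 (1 at an unadjusted p under 0.05, and 1 called lower after cyclic loess normalization).

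Lipid hydrolysis contributed further rises. The lipl genes encode lysosomal lipases that release fatty acids from stored fat, and of 8 measured 4 rose and none fell, with a median of 0.54. The gene lipl-1 had 6.28, 5.37 and 6.83 at day 6, against 2.14, 2.67 and 3.16 at day 1 (3.50 ± 0.35, adjusted p = 0.00109). The others were lipl-5 (1.48 ± 0.26), lipl-3 (1.04 ± 0.20) and lipl-2 (0.82 ± 0.14), and without day 6 replicate 1 their adjusted p was 0.0578, 0.07 and 0.0542, which left lipl-1 alone. Without day 6 replicate 3 the count was 2. The acid sphingomyelinase gene asm-3, whose product splits sphingomyelin, had 6.52, 5.74 and 7.57 at day 6, against 2.65, 2.91 and 2.43 at day 1 (3.95 ± 0.37, adjusted p = 0.000712).

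Detoxification families held genes that rose and genes that fell. Cytochrome P450 enzymes oxidise lipids and foreign compounds, and of 73 genes 9 rose and 1 fell. The gene cyp-34A9 had 6.75, 6.02 and 5.56 at day 6, against 3.56, 4.25 and 4.10 at day 1 (2.14 ± 0.28). The gene cyp-37A1 had 5.90, 5.59 and 5.64 at day 6, against 4.09, 4.04 and 3.34 at day 1 (1.89 ± 0.20). Neither pair of days overlapped, and both calls held with each array left out, while the count for the family was 5 without day 6 replicate 1 or 3. UDP-glucuronosyltransferases attach sugars to such compounds, and 4 of 67 (5.97%) rose while 5 (7.46%) fell: ugt-53 differed by 2.19 ± 0.34 and ugt-47 by -1.59 ± 0.18. Of all genes 2.17% rose and 1.68% fell, and of genes with a day mean of 3 or above 5.45% and 4.28%. In this family 35 of the 67 had such a mean. The glucuronosyltransferase genes that fell numbered 2 without day 6 replicate 1 and 3 without day 6 replicate 3 or day 1 replicate 3. Of 49 glutathione S-transferase genes 1 rose and 4 fell, with 1 falling when day 6 replicate 1, day 6 replicate 3 or day 1 replicate 2 was left out.

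Genes downstream of DAF-16 were called among the rises, and daf-16 itself was not. Of 26 dod and dct genes, named for their response to daf-16, 4 rose and 1 fell, with a median of 0.21. That is 15.4% and 3.85%, against 2.17% and 1.68% of all genes. Of genes with a day mean of 3 or above, 5.45% rose and 4.28% fell, and 15 of the 26 had such a mean. The list was not split by whether DAF-16 raises or lowers each gene. Those that rose were dct-8, dod-3, dod-23 and dct-7. The call of dct-7 was lost without day 6 replicate 1 or 2 and without day 1 replicate 1 or 2. The gene dct-8 had 6.56, 6.44 and 5.94 at day 6, against 1.47, 1.55 and 1.47 at day 1 (4.82 ± 0.31). The gene dod-3 had 4.76, 4.22 and 5.34 at day 6, against 1.88, 2.06 and 1.93 at day 1 (2.82 ± 0.24), and dct-18 fell by 1.65 (SE 0.15). The levels of daf-16 overlapped between the days, at 7.35, 7.41 and 7.53 at day 6 and 7.17, 7.34 and 7.72 at day 1 (0.02 ± 0.18, adjusted p = 0.972). The superoxide dismutase gene sod-3, a common reporter of DAF-16, had 3.49, 3.14 and 3.57 at day 6, against 3.06, 3.25 and 3.20 at day 1, and was not called (0.23 ± 0.16, adjusted p = 0.543).

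In the insulin pathway itself 3 of 14 genes rose: the kinase gene pdk-1 (0.92 ± 0.15), the TORC2 component gene rict-1 (0.74 ± 0.16) and the receptor gene daf-2 (0.61 ± 0.14). The 3 are 21.4% of the list, in which 13 genes had a day mean of 3 or above. Of all genes with such a mean 5.45% rose. Without day 6 replicate 1 none of the 3 was called (adjusted p = 0.0574, 0.117 and 0.133), and cyclic loess normalization ended the calls of rict-1 and daf-2 (adjusted p = 0.0605 and 0.109). One was called without day 6 replicate 2, day 6 replicate 3, day 1 replicate 1 or day 1 replicate 2. Among 40 insulin-like peptide genes, the ligands, ins-19 rose (2.22 ± 0.33) and daf-28 fell (-1.0 ± 0.17). That is 2.5% each way, close to the 2.17% rising and 1.68% falling of all genes. Of the 40, 9 had a day mean of 3 or above. The gene ins-19 had 4.54, 3.62 and 5.18 at day 6, against 2.08, 2.09 and 2.53 at day 1, and daf-28 had 4.88, 5.24 and 4.75 at day 6, against 5.87, 6.21 and 5.77 at day 1. The call of daf-28 did not hold with day 6 replicate 1 or 3 left out (adjusted p = 0.067 and 0.0576), and 4 of the peptide genes rose with either day 12 array left out.

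The gene hsp-16.2, whose small chaperone is induced by heat and protein damage, had 4.48, 3.75 and 4.67 at day 6, against 1.38, 1.84 and 1.74 at day 1 (2.65 ± 0.26, adjusted p = 0.00102). In the same list of 11 small heat shock genes 1 rose and 2 fell (27.3% called), hsp-12.1 (-0.97 ± 0.14) and hsp-25, which lost its call without day 6 replicate 1 (adjusted p = 0.0571). Of the 11, 7 had a day mean of 3 or above. Of all genes 3.85% were called, and of genes with such a mean 9.73%. The gene of the heat shock factor hsf-1 (0.24 ± 0.14), the endoplasmic reticulum chaperone gene hsp-4 (-0.14 ± 0.15) and the mitochondrial chaperone gene hsp-6 (0.01 ± 0.14) were not called. Of 26 genes of the endoplasmic reticulum unfolded protein response, the sensor gene atf-6 rose (0.68 ± 0.16) and the disulfide isomerase genes pdi-2 (-0.63 ± 0.15) and pdi-6 (-0.71 ± 0.15) fell, and without day 6 replicate 1 their adjusted p was 0.181, 0.173 and 0.139. With any array left out at most 1 of them was called. Of 12 genes of the mitochondrial response (8.33% called) gpd-2 fell (-1.08 ± 0.17, adjusted p = 0.0506 without day 6 replicate 1). None of 43 CCT chaperonin and DnaJ genes was called by limma, and 9 had an unadjusted p under 0.05.

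Of 45 genes of the body wall muscle sarcomere and its attachments 20 or 44.4% fell and none rose, with a median of -0.93. The mean level of the list was 5.47, 6.08 and 5.91 on the day 6 arrays, against 6.80, 6.68 and 6.61 on the day 1 arrays, so all day 6 arrays lay below all day 1 arrays and replicate 1 lay lowest. The number that fell was 5 or 11 with day 6 replicate 1 or 3 left out, and 9 or 12 with day 1 replicate 1 or 2 left out, while the median stayed between -1.07 and -0.79 over the fits with an array left out. Among the members, the myosin light chain gene mlc-1 had 5.37, 5.97 and 5.48 at day 6, against 6.85, 7.36 and 6.98 at day 1 (-1.46 ± 0.21, adjusted p = 0.00703), and kept its call in all of these fits. The gene of the main body wall myosin, unc-54, had 7.56, 9.37 and 9.07 at day 6, against 10.79, 10.39 and 10.16 at day 1 (-1.78 ± 0.43, adjusted p = 0.0495). Its call was lost without any array of day 1, without either array of day 12 and without day 6 replicate 1 or 3, with an adjusted p of up to 0.148 (without day 1 replicate 1). The second body wall myosin gene myo-3 was not called (-0.85 ± 0.26, adjusted p = 0.114).

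Other sarcomere genes had the same ordering of the days. The paramyosin gene unc-15 had 5.98, 7.1 and 6.86 at day 6, against 8.32, 8.14 and 8.0 at day 1 (-1.51 ± 0.29). The perlecan gene unc-52, part of the basement membrane under muscle, had 4.59, 6.03 and 5.51 at day 6, against 7.44, 6.95 and 6.97 at day 1 (-1.74 ± 0.33). Both calls were lost without day 6 replicate 1 (adjusted p = 0.0515 and 0.0521) and without day 1 replicate 1 (0.0654 and 0.07), that of unc-15 without day 1 replicate 2 (0.0564), and that of unc-52 without day 6 replicate 3 (0.0586). In pharyngeal muscle, the pump that takes in food, 3 of 8 genes fell, among them the pharyngeal myosin gene myo-2 (-1.14 ± 0.20). Without day 6 replicate 1 none of the 8 was called and the median was -0.40 in place of -0.68; 1 was called without day 6 replicate 3 or day 1 replicate 1, and 2 without day 1 replicate 2 or day 1 replicate 3.

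**Figure D3:**
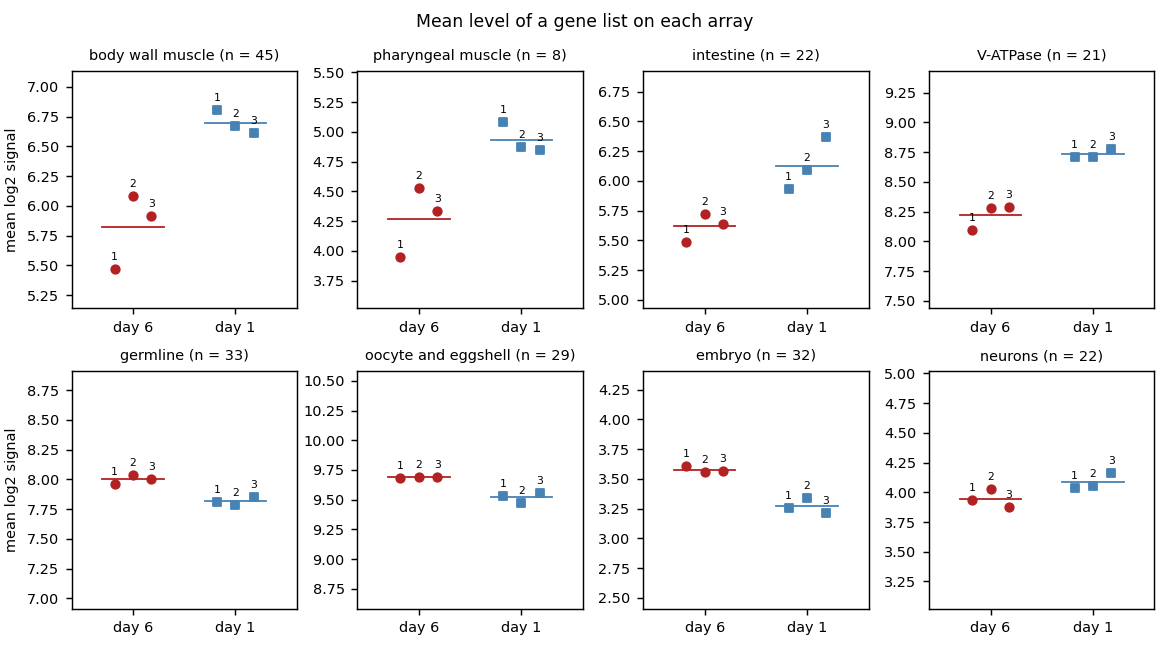
Mean log2 signal (y axis, spanning 2 units in every panel) over the measured members of 8 gene lists on each array, with day 6 (red circles) left of day 1 (blue squares), replicate numbers above the points and a line at the mean of each day. The body wall muscle, pharyngeal muscle, intestine and V-ATPase lists lie lower on every day 6 array, and day 6 replicate 1 is the lowest point in those 4 panels.

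The intestine digests food, stores fat and makes yolk, and of 22 intestine genes 5 fell and 1 rose, with a median of -0.56. The number that fell was 3 without day 6 replicate 1. The peptide transporter gene pept-1 had 4.79, 5.61 and 5.47 at day 6, against 6.98, 6.9 and 7.7 at day 1 (-1.90 ± 0.26). The microvillar actin gene act-5 had 7.88, 8.56 and 8.57 at day 6, against 9.72, 9.80 and 10.28 at day 1 (-1.60 ± 0.22). The intermediate filament gene ifb-2 had 5.92, 6.28 and 6.36 at day 6, against 7.27, 7.67 and 8.29 at day 1 (-1.56 ± 0.24). In each of these genes the days were apart, and each kept its call with any array left out. The GATA factor gene elt-2, the master regulator of the intestine, was not called (-0.83 ± 0.24, adjusted p = 0.0931), and none of the 6 vitellogenin genes, which encode yolk, was called by limma or had an unadjusted p under 0.05.

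Aspartyl and cathepsin proteases digest proteins in the gut and lysosomes, which the V-ATPase proton pump acidifies. Of 40 aspartyl and cathepsin protease genes 8 or 20.0% fell and 1 rose. The cathepsin A-like gene ctsa-4.2 had 6.01, 6.25 and 5.98 at day 6, against 7.50, 7.42 and 8.39 at day 1 (-1.69 ± 0.24), and the cathepsin B-like gene cpr-9 had 5.49, 5.87 and 5.66 at day 6, against 6.83, 6.58 and 6.97 at day 1 (-1.12 ± 0.16). The count was 4 without day 6 replicate 1 and 5 without either other day 6 array. Of 21 V-ATPase genes 7 or 33.3% fell and none rose, with a median of -0.53; leaving out an array gave 1 that fell (day 6 replicate 1), 3 (day 1 replicate 1) or 4 (day 6 replicate 2, day 1 replicate 2 or day 1 replicate 3). The subunit gene vha-5 had 5.43, 6.15 and 6.08 at day 6, against 7.48, 7.13 and 6.91 at day 1 (-1.29 ± 0.23), and its adjusted p was 0.0536 without day 6 replicate 1.

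Aquaporins carry water and glycerol across membranes. Of 12 genes 5 or 41.7% fell and none rose, with a median of -0.66. The gene aqp-8 had 5.39, 6.54 and 6.68 at day 6, against 8.10, 8.12 and 8.17 at day 1 (-1.92 ± 0.29). The gene aqp-7 had 7.26, 8.24 and 7.65 at day 6, against 9.47, 9.28 and 9.17 at day 1 (-1.59 ± 0.22), and aqp-2 had 5.85, 5.77 and 5.74 at day 6, against 6.55, 6.78 and 6.72 at day 1 (-0.90 ± 0.13). These 3 kept their calls with any array left out, and 3 of the family were called without day 6 replicate 1 or day 6 replicate 3.

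Of 26 genes of the methionine cycle and phosphatidylcholine synthesis 7 or 26.9% fell, 19 were not called and none rose, with a median of -0.41; 4 fell without day 6 replicate 1 or day 6 replicate 3. S-adenosylmethionine, made by sams-1, gives the methyl groups with which pmt-1 and pmt-2 build phosphatidylcholine. The gene sams-1 had 6.64, 7.23 and 6.67 at day 6, against 8.24, 8.07 and 8.25 at day 1 (-1.34 ± 0.18, adjusted p = 0.00478). The gene pmt-2 had 6.93, 7.75 and 7.23 at day 6, against 9.02, 8.53 and 8.91 at day 1 (-1.52 ± 0.22, adjusted p = 0.00653). The methionine sulfoxide reductase gene msra-1, which repairs oxidised methionine, had 6.99, 8.51 and 8.24 at day 6, against 9.94, 9.85 and 10.72 at day 1 (-2.26 ± 0.36). Outside this list, the nuclear receptor gene nhr-114 had 4.93, 6.27 and 5.72 at day 6, against 7.93, 8.11 and 8.19 at day 1 (-2.44 ± 0.29).

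Of 28 genes of amino acid and propionate breakdown 9 or 32.1% fell and none rose, with a median of -0.39. The count was 6 to 11 with an array left out, lowest without day 6 replicate 1. In tyrosine breakdown, the aminotransferase gene tatn-1 had 5.85, 6.66 and 6.35 at day 6, against 7.82, 7.74 and 7.76 at day 1 (-1.49 ± 0.19), and the dioxygenase gene hpd-1 had 7.87, 8.46 and 8.30 at day 6, against 9.59, 9.37 and 9.21 at day 1 (-1.18 ± 0.18). The dioxygenase gene haao-1 of tryptophan breakdown differed by -1.44 ± 0.22, and the glycine decarboxylase gene gldc-1 by -1.18 ± 0.19. No array of day 6 reached a day 1 array in any of these genes.

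Of 66 genes of fatty acid activation and beta-oxidation 11 fell and none rose, with 4 falling when day 6 replicate 1 or 3 was left out, 6 when it was day 1 replicate 1 and 7 when it was day 1 replicate 2. The 11 are 16.7% of the list, against 1.68% falling of all genes and 4.28% of genes with a day mean of 3 or above. Of the 66, 49 had such a mean. The acyl-CoA synthetase gene acs-5 (-1.14 ± 0.15) and the acyl-CoA dehydrogenase gene acdh-9 (-1.57 ± 0.24) kept their calls. In glycolysis 5 of 19 genes (26.3%) and in the citrate and glyoxylate cycles 4 of 27 (14.8%) fell, beside the same 1.68% and 4.28%. Without day 6 replicate 1 none was called in either list. Glycolysis counted 2 or 3 calls without any other array of days 6 and 1, and the citrate and glyoxylate list none (day 6 replicate 2, day 6 replicate 3 or day 1 replicate 1 left out), 2 (day 1 replicate 2) or 1 (day 1 replicate 3 or either day 12 array).

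**Figure D4:**
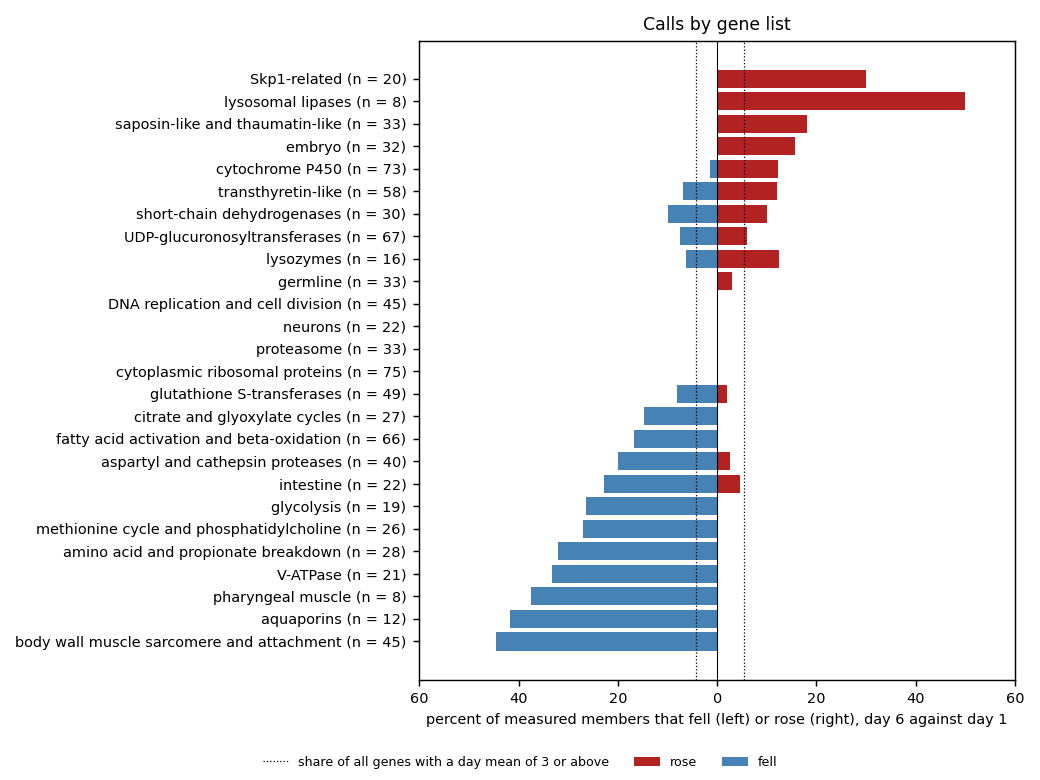
Percent of the measured members of 26 gene lists that rose (red, to the right) or fell (blue, to the left) at day 6 against day 1, with n the measured members and dotted lines at 5.45% and 4.28%, the shares of genes with a day mean of 3 or above that rose and fell. Bars also count members with both day means under 3, so bars and lines are not directly comparable. In the cytochrome P450 list 27 of 73 members had a day mean of 3 or above. Body wall muscle reaches 44.4% and aquaporins 41.7% on the falling side, and lysosomal lipases 50% on the rising side.

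The germline and embryo lists had slightly higher means at day 6. The germline list averaged 7.96, 8.04 and 8.01 on the day 6 arrays, against 7.81, 7.79 and 7.85 on the day 1 arrays, and the oocyte and eggshell list 9.68, 9.69 and 9.69 at day 6, against 9.53, 9.47 and 9.56 at day 1. In each list 1 gene rose and none fell: the synaptonemal complex gene syp-1 (0.92 ± 0.14) of 33 germline genes, and the caveolin gene cav-1 (0.82 ± 0.19) of 29 oocyte genes. The call of cav-1 was lost under quantile normalization (adjusted p = 0.0718) and without any array of days 6 and 1, with an adjusted p of up to 0.163 (without day 6 replicate 1). The germline median was 0.19, against 0.12 over genes with a day mean of 3 or above, and 0.06 after cyclic loess normalization. Of 32 embryo genes 5 rose and none fell, and the zinc finger gene ztf-11 had 5.87, 5.57 and 5.88 at day 6, against 4.28, 4.41 and 4.49 at day 1 (1.38 ± 0.15). Embryos inside the mothers were not separated from the adults, and their part in these values was not tested. The embryo genes rising numbered 3 without day 6 replicate 1, day 6 replicate 2 or day 1 replicate 2.

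The lists of neurons and of cytoplasmic ribosomal proteins gave no calls. Of 22 neuron genes none was called by limma and 6 were lower at an unadjusted p under 0.05, with a median of -0.22. All 75 cytoplasmic ribosomal protein genes were lower at day 6, with differences from -0.62 to -0.01 and a median of -0.24, and in 50 of them every day 6 array lay below every day 1 array, against 8.99% of all genes in that direction. All 75 had a day mean of 3 or above, and among all such genes the days did not overlap in 43.8%, both directions counted. None passed the test of limma at an adjusted p under 0.05, 17 had an unadjusted p under 0.05, and 1 was called under each of the 3 scaling alternatives. The direction of the median held after quantile (-0.21) and cyclic loess (-0.26) normalization. The medians of DNA replication and cell division genes (0.19, of 45 genes, none called by limma and 14 at an unadjusted p under 0.05) and of autophagy genes (0.30, of 31) were 0.09 and 0.19 after cyclic loess. Of the autophagy genes atg-9 was called as higher, and its call was lost after quantile (adjusted p = 0.0901) and cyclic loess normalization (0.095) and without any array of days 6 and 1, with an adjusted p of up to 0.15 (without day 6 replicate 1).

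Of 151 cuticle collagen genes 4 or 2.65% rose, 8 or 5.30% fell and 139 were not called, against 2.17% rising and 1.68% falling of all genes, and 5.45% and 4.28% of genes with a day mean of 3 or above. The gene col-155 had 4.77, 5.51 and 6.11 at day 6, against 7.94, 8.46 and 8.34 at day 1 (-2.78 ± 0.29), while col-73 had 5.86, 6.34 and 6.39 at day 6, against 3.0, 3.80 and 1.96 at day 1 (3.28 ± 0.43). The number that fell was 4 without day 6 replicate 1, 3 without day 6 replicate 3, day 1 replicate 1 or day 1 replicate 2, 5 without either day 12 array and 12 without day 6 replicate 2. The adult collagen gene col-19 had 5.15, 8.07 and 7.44 at day 6, against 9.64, 9.18 and 8.86 at day 1, and was not called (-2.34 ± 0.63, adjusted p = 0.0772). Transthyretin-like genes, which encode small secreted proteins, rose in 7 and fell in 4 of 58; ttr-44 had 7.64, 7.33 and 7.65 at day 6, against 4.75, 5.21 and 3.93 at day 1 (2.91 ± 0.27), and ttr-31 had 4.81, 4.97 and 4.94 at day 6, against 6.21, 6.20 and 6.34 at day 1 (-1.34 ± 0.14). The transthyretin-like rises numbered 4 without day 6 replicate 1.

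Of 1352 chemoreceptor genes, most of them expressed in few sensory neurons, 25 had a day mean of 3 or above. Of the 1352, 5 or 0.37% rose and 4 or 0.30% fell, against 2.17% and 1.68% of all genes. Among all genes with both day means under 3, 0.26% were called. The chemoreceptor rises numbered 2 and 3 when day 6 replicate 1 and 3 were left out. The gene sri-40 had 2.60, 4.83 and 4.11 at day 6, against 6.80, 6.92 and 6.93 at day 1 (-3.04 ± 0.44). Of 275 nuclear hormone receptor genes 4 rose and 4 fell, which is 1.455% each way, against 2.17% and 1.68% of all genes. The receptor rises numbered 1 without day 6 replicate 1 and 2 without day 1 replicate 1. Beside nhr-114, nhr-97 fell by 1.2 (SE 0.18) and nhr-76 rose by 1.35 (SE 0.15). Of 6 genes annotated as ribosomal RNA 2 rose, the 5S copies rrn-4.15 (1.54 ± 0.34) and rrn-4.5 (1.61 ± 0.25), which are near-identical copies that a probe may not separate. The call of rrn-4.15 was lost without any array of days 6 and 1 except day 1 replicate 1, with an adjusted p of up to 0.121 (without day 6 replicate 3), and that of rrn-4.5 held. Of 6678 genes annotated as ncRNA, of which 299 had a day mean of 3 or above, 9 rose and 13 fell (0.33% called). The long noncoding RNA lep-5 differed by -1.1 ± 0.19 (adjusted p = 0.0689 without day 6 replicate 1).

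The day 12 arrays placed the early changes in time. The early change minus the later one (day 6 minus day 1, less day 12 minus day 6) was called in 892 genes or 3.41%, positive in 1.24% and negative in 2.17%, beside 8.98% of genes called between day 12 and day 6. The count was 422, 523 and 419 without day 6 replicate 1, 2 and 3 and 536 without day 12 replicate 2. Both intervals use the day 6 arrays, which enter them with opposite sign, so each gene's values are given side by side. The genes named here and below were all called for their early change, and the same values enter the difference between the intervals. That choice favours a call in the direction of the early change, so such a call is no separate evidence. The first course was a peak at day 6: sysm-1 had means of 5.27 at day 1, 9.78 at day 6 and 5.10 at day 12, and differed by -4.68 between day 12 and day 6. The gene asm-3 had means of 2.66, 6.61 and 2.65 over days 1, 6 and 12, and C32H11.4 had 4.79, 8.40 and 3.44. In all 3 the early change exceeded the later one, by 9.19 in sysm-1, 7.91 in asm-3 and 8.58 in C32H11.4, and all 3 were called. The genes scl-20, F56D6.9, ttr-44 and col-73 also rose by day 6 and fell by day 12.

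A second set was not called between day 12 and day 6: mtl-1 (-0.53), scl-2 (-0.10), lys-7 (-0.24) and dct-8 (0.60), all of which were called for the difference between the intervals. The gene dct-8 was called between day 12 and day 6 when day 12 replicate 1 was left out (adjusted p = 0.0154). Other genes rose in both intervals. C18D11.6 had means of 2.27, 6.42 and 10.16 at days 1, 6 and 12, with differences of 4.15 and 3.74, and T23E7.6 had 3.18, 6.35 and 8.84. For hsp-16.2 the differences were 2.65 and 1.83. The intervals were not called as different in any of these 3 genes. Falls continued in mlc-1, with -1.46 in the early interval and -2.03 in the later one, and in sams-1, with -1.34 and -1.09. The aquaporin gene aqp-2 turned: it had means of 6.68 at day 1, 5.79 at day 6 and 9.15 at day 12, and its early change was lower than the later one by 4.26.

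**Figure D5:**
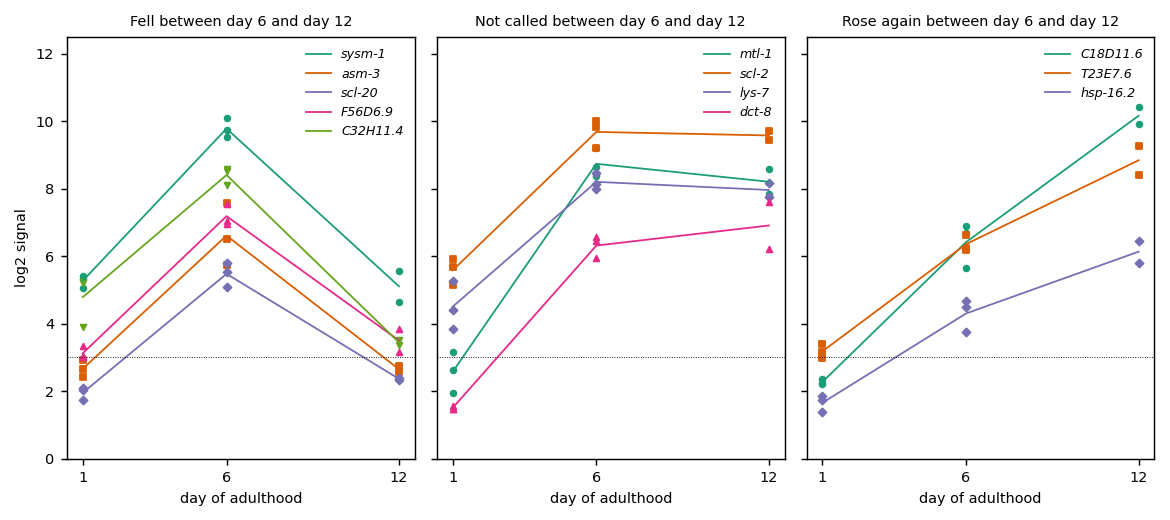
Log2 signal (y axis) of 12 genes that rose between day 1 and day 6 over days 1, 6 and 12 of adulthood (x axis), with a point for each array, a line through the day means and a dotted line at a level of 3. Left, 5 genes that then fell, such as sysm-1 with a mean of 9.78 at day 6; middle, 4 genes with no call between day 12 and day 6; right, 3 genes that rose again, such as C18D11.6 with a mean of 10.16 at day 12.

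Some called genes lay next to each other in the RefSeq gene order. Of the 566 risen genes 53 or 9.36% had another risen gene as a direct neighbour, against 4.16% of all other genes, and of the 439 fallen genes 45 or 10.3% had a fallen neighbour, against 3.19%. These differences in share were not tested. On chromosome IV, F56D6.9 (4.06 ± 0.22), F56D6.8 (3.30 ± 0.39) and dct-8 (4.82 ± 0.31) stood in a row. On the same chromosome clec-85 (1.38 ± 0.27), Y54G2A.49 and Y54G2A.16 (0.95 ± 0.21) also stood in a row, in that order. Y54G2A.49 had 5.50, 4.92 and 5.11 at day 6, against 2.01, 2.66 and 2.36 at day 1 (2.83 ± 0.20). Y54G2A.16 lost its call without any array of days 6 and 1 except day 1 replicate 3 (adjusted p of up to 0.113, without day 6 replicate 3). The call of clec-85 was lost without any array of days 6 and 1 except day 6 replicate 2, with an adjusted p of up to 0.0941 (without day 6 replicate 1). The falling run was chca-1 (-2.19 ± 0.35), F58G6.3 (-1.16 ± 0.25) and F58G6.7 (-1.44 ± 0.27). Without day 6 replicate 1 the adjusted p of F58G6.3 was 0.128 and that of F58G6.7 was 0.073; the call of F58G6.3 was also lost without each other array except day 1 replicate 1, and that of F58G6.7 without day 6 replicate 3, day 1 replicate 1 and day 1 replicate 3. Neighbouring genes can be close copies or share a transcript, and the part of either was not tested.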

How the data were processed

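RNA of 8 whole-animal samples was hybridised to 1 Affymetrix Gene 1.1 ST array each. The authors deposited 1 value per probe and array, read here as log2 signal from its range (0.68 to 13.23 over 29317 probes); the normalization, software and log base behind it were not given in the sources used here. Array medians were 2.32 to 2.40, and precision is limited by how few arrays there are. GEO's probe annotation gave 26281 probes 1 symbol, 480 several and 2556 none; 24801 of the first matched RefSeq (WBcel235) by Entrez ID. Probes with several symbols were tested but not named.

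The model had 1 mean for each day and used all 8 arrays, in limma 3.58.1 in R 4.3.3 (lmFit, contrasts.fit, eBayes, two-sided; 5 residual and 5.07 prior degrees of freedom), with Benjamini-Hochberg adjustment over 26761 probes with a symbol. The fit was checked on simulated data. Named genes were the 20 largest rises and 20 largest falls called, not overlapping and with a day mean of 3 or above; up to 6 called and 3 uncalled members of each of 73 lists; and a set of landmark genes. The neighbours Y54G2A.49, Y54G2A.16, F58G6.3 and F58G6.7, and rrn-4.15, rrn-4.5 and lep-5, were named after their values were seen. The comparison, its genes and lists were chosen with earlier results of these data known. The 19 alternatives covered scaling, filters, array weights, the replicate number as a block and each array left out. Base sequences were not used here.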

Additional observations from a re-analysis of the deposited data

Results flagged for a closer look

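Probes with no gene symbol were left out of the comparison because they could not be named. In a fit that took in every probe of the table, 18 of these 2556 probes were called higher and 93 lower at day 6 than at day 1, by limma with Benjamini-Hochberg adjustment, or 4.34% of them. The same fit called 927 of the 26128 genes, 524 higher and 403 lower. The differences of the called probes with no symbol ran from -2.33 to 3.08.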

How the results depend on the processing

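With 1 array left out, the calls between day 6 and day 1 numbered 274 to 919 in place of 1005, the rises 162 to 514 in place of 566, the falls 112 to 405 in place of 439, and the calls for the early minus the later change 419 to 900 in place of 892; all lowest values came without day 6 replicate 1, except the last, without day 6 replicate 3. Leaving out day 1 replicate 1 gave 296 rises and 348 falls. A minimum change of 1.2-fold (treat) left 327 calls, 186 rises and 141 falls. Testing only probes with a mean of 3 or above on at least 1 day gave 873 rises, and fewer genes were tested. The median difference over genes with a day mean of 3 or above was 0.12 as deposited, 0.03 after quantile and 0.00 after cyclic loess normalization. The balance of directions turned with it: quantile normalization gave 433 rises and 538 falls, and cyclic loess 398 and 592. Same-numbered samples of day 6 and day 1 did not deviate together (r = -0.11, -0.03 and -0.03 across genes). With 3 arrays a day such a correlation cannot show whether they shared a culture or batch, so their pairing is unknown. With the replicate block the calls were 764 (392 rises, 372 falls) and those of the early minus the later change 759. Of 242 named genes that were called, 106 kept their call in each of the 19 alternatives, and none of the 242 changed direction in any of them; among uncalled named genes 12 did, daf-16 and hsp-6 included. With 3 arrays a day and no detection calls, levels under 3 are bounded by the floor of the signal.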
